A study of Mus musculus with 12 samples.

Results

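The 9 genes described here are markers of endothelial cells, the cells that line blood vessels: Pecam1, Cdh5, Kdr, Flt1, Tek, Tie1, Eng, Emcn and Esam. They were chosen by name, as a gauge of vascular cells in each isolate. They are 9 of 22180 mouse genes with a probe set that carries a single gene symbol, and each of the 9 has 1 such probe set. RNA of 4 kinds of mouse cells had been hybridised to Affymetrix arrays, with 3 arrays per kind and 12 in all. Acinar cells make and secrete the digestive enzymes of the pancreas, and those of the adult and the embryonic group had been released by digestion of the tissue and lysed without culture. Cells of the third kind, acinar-to-ductal metaplasia (ADM), had spent 7 days in 3D collagen and received TGF-alpha, which activates the EGF receptor, at 50 ng/ml. The tumor cells were of low passage and came from standard medium. Every sample, the tumor cells included, is labelled as C57Bl6/J wildtype. The labels give no age for the adult or embryonic animals, no driver mutation for the tumor, and no sorting step. All 3 tumor samples share a code in the labels, and whether they came from 1 line is not stated. Replicates are numbered 1 to 3 and the labels do not tie them to separate animals or dishes. The p-values below therefore measure only the spread between these arrays, which may be technical.

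Endothelial cells of the pancreas form a dense capillary bed around acini and islets, and they are separate from the epithelial cells that this series set out to compare. Pecam1, Cdh5 and Esam encode adhesion proteins of the junctions between endothelial cells. Kdr and Flt1 encode receptors of vascular endothelial growth factor (VEGF), Tek encodes the receptor of the angiopoietins, and Tie1 encodes the related receptor that acts beside it. Eng encodes endoglin, a coreceptor of the TGF-beta family, and Emcn encodes endomucin, a sialomucin of capillaries and veins. Several of these genes are not restricted to endothelium: Pecam1 is also known from platelets and leukocytes, Eng from activated mesenchymal cells, and Flt1 from some tumor cells.

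The promoters of 4 members are shown, because these genes stand for the patterns described below: Kdr and Emcn were highest in embryonic cells and at background in tumor cells, Eng was as high in ADM as in embryonic cells, and Flt1 was highest in tumor cells. Each window runs from 250 bases before to 50 bases after the annotated start, 5′ to 3′ along the gene, from RefSeq on GRCm38.p6. Of the 9 members, 6 were matched to a window. Capitals mark AGGAA or CGGAA on either strand, letters of the core recognised by ETS transcription factors.
Kdr, chr5:75978406-75978705, minus strand: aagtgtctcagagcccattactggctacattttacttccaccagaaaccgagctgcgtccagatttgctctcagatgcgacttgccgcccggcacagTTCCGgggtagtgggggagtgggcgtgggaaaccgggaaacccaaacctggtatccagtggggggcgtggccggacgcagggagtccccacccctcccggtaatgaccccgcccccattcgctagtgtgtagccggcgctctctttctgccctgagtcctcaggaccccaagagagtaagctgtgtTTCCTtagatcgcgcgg
Emcn, chr3:137340828-137341127, plus strand: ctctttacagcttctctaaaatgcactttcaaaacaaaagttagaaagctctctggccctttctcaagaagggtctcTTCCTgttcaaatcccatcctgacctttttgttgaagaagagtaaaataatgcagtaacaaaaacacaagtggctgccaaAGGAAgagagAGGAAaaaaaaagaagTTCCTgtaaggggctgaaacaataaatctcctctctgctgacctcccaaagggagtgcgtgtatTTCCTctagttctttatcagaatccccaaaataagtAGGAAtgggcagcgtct
Eng, chr2:32646345-32646644, plus strand: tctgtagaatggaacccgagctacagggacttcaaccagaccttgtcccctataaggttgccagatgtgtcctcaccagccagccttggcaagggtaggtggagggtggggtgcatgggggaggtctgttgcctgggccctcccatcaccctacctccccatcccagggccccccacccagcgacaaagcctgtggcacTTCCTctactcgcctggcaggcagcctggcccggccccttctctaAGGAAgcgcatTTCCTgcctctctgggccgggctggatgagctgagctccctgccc
Flt1, chr5:147725962-147726261, minus strand: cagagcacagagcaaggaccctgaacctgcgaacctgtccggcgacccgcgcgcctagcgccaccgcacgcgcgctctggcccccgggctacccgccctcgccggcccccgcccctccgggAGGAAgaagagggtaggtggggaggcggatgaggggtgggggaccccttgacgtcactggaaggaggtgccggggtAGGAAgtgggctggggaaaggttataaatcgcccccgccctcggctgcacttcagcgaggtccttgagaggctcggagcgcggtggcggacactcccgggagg
These letters occurred 2 times in Kdr, 6 times in Emcn, 3 times in Eng and 2 times in Flt1. Among the other matched members they occurred 2 times in Tek and 5 times in Tie1. Of 32851 windows of the same length, 78.0% held at least 1 match, with a median of 1, and 10.1% held 4 or more. The letters AGATAA of a GATA site, on either strand, occurred in Tek alone among these 6 and in 11.2% of all windows. The Emcn window had a G and C content of 41.0% and that of Flt1 70.7%, against a median of 52.7% over all windows. A match describes letters and does not show a bound site.

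Values are the deposited log2 signal per probe set. Levels are compared between groups for 1 gene at a time, because the brightness of different probe sets cannot be set against each other. The background level, 3.62, is the 95th percentile of group means among 1394 genes for olfactory or vomeronasal receptors. All 22180 genes were fitted together with limma, and a difference counts as called below where its Benjamini-Hochberg adjusted p over all genes was under 0.05 and its size at least 1 log2 unit. Correlations across genes between arrays of a group lay from 0.967 to 0.991. Tumor replicate 1 stood apart from replicates 2 and 3 (0.968 and 0.969, against 0.987 between these 2), and calls lost without it are named beside the genes. The labels were checked against acinar markers: their mean was 11.7 in the adult group, 10.97 to 11.12 across embryonic arrays and 8.78 in ADM, and it was 3.86 in tumor cells, where Cpa1 and Ctrb1, enzymes of digestion, stood at 3.96 and 4.52. The duct keratins Krt19 and Krt7 were at 10.4 and 10.2 in tumor cells, while Epcam, a surface protein of most epithelia, was near background there at 3.82.

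Embryonic isolates carried the strongest endothelial signal and tumor cells the weakest, while ADM cultures and adult isolates lay between them, at an order that depended on the scaling of the arrays. Averaged over the 9 genes, the log2 signal was 7.47 ± 0.03 (SD, n = 3) on embryonic, 5.63 ± 0.13 on ADM, 5.62 ± 0.09 on adult and 3.95 ± 0.06 on tumor arrays. The mean difference of the 9 between ADM and adult cells was 0.01 in the deposited values, -0.25 with quantile normalization and -0.71 with the arrays centred on housekeeping genes. Of the 9 members, 6 were lower in ADM by value in the deposited data and 8 with housekeeping centring. In embryonic against adult cells, 8 of 9 members were called higher and Flt1 was not called, where 10% of all genes were called higher and 2.61% were called lower. For ADM against adult cells Eng was called higher and the other 8 were not called, beside 12.5% of all genes higher and 4.22% lower. With quantile normalization 2 members were called lower there, beside 1375 of all 22180 genes. With housekeeping centring 4 were called lower, beside 7667 of all genes. In tumor against adult cells 6 members were called lower (Pecam1, Cdh5, Kdr, Tek, Eng and Emcn) and Flt1 higher, beside 5.96% of all genes lower and 14.0% higher. Tie1 and Esam were not called there. Both stood close to background in adult cells, as did Tek, which was called lower (-1.20 ± 0.33, limma adjusted p = 0.0113). The tumor mean of Tek, 2.80, lay under background, and with that mean raised to background the drop was at least 1.30-fold. Treated in the same way, the drop was at least 1.37-fold for Tie1 and at least 1.28-fold for Esam. Whether the background level cost Tie1 and Esam their calls was not tested. The median difference of the 9 members was 2.13 in embryonic, -0.19 in ADM and -1.80 in tumor cells against adult cells, beside medians over all genes of -0.09, -0.11 and -0.09. These 3 comparisons share the adult arrays and are not independent of each other.

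The remaining comparisons share arrays with those above. In embryonic cells against ADM cultures 8 of 9 members were called higher, and Eng was not called (4.91% of all genes higher, 4.55% lower). In embryonic against tumor cells 8 of 9 were called higher and Flt1 was not called (7.80% of all genes higher, 6.53% lower). In tumor cells against ADM cultures 6 members were called lower, again Pecam1, Cdh5, Kdr, Tek, Eng and Emcn, and Flt1 higher (5.07% of all genes lower, 3.28% higher). The median difference of the members was 1.85 for embryonic minus ADM, 3.93 for embryonic minus tumor and -1.46 for tumor minus ADM. With group means under the background level raised to it, the last pair of medians became 3.73 and -1.30. In bulk RNA, fewer endothelial cells in an isolate and less of a transcript per endothelial cell cannot be told apart.

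**Figure D1:**
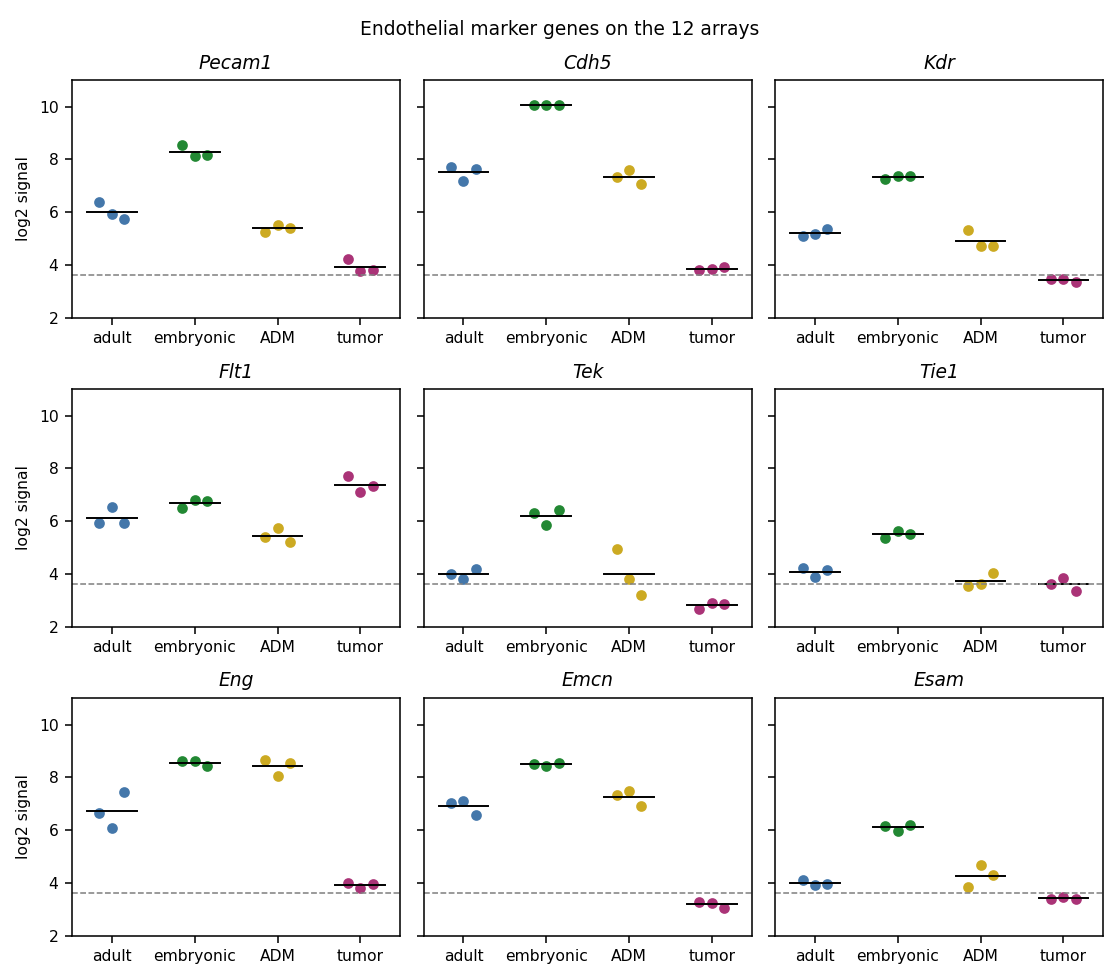
Log2 signal (vertical axis) of the 9 endothelial markers on each of the 12 arrays, with 3 points per group, a bar at the group mean and a dashed line at the background level of 3.62. The group mean is highest in embryonic cells for each gene but Flt1, which is highest in tumor cells, and Eng is as high in ADM as in embryonic cells.

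Cdh5, which encodes VE-cadherin, the cadherin that holds endothelial cells together, read 10.05, 10.05 and 10.07 on embryonic arrays. It read 7.71, 7.20 and 7.64 on adult, 7.32, 7.60 and 7.05 on ADM, and 3.79, 3.84 and 3.93 on tumor arrays. Embryonic arrays lay above all others and tumor arrays below all others, while adult and ADM arrays overlapped. Cdh5 was 5.82-fold higher in embryonic than in adult cells (log2 difference 2.54 ± 0.17, SE, n = 3 per group, limma adjusted p = 3.68e-07). It was 12.7-fold lower in tumor than in adult cells (-3.66 ± 0.17, limma adjusted p = 3.38e-09). ADM minus adult was -0.19, with a 95% interval from -0.57 to 0.18 (limma adjusted p = 0.401). With quantile normalization it was -0.57, with an interval from -0.92 to -0.21 (adjusted p = 0.0199), and with housekeeping centring -0.92, with an interval from -1.29 to -0.55 (adjusted p = 0.000328).

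Pecam1, which encodes the adhesion protein CD31, read 8.53, 8.13 and 8.15 on embryonic, 6.39, 5.94 and 5.74 on adult, 5.25, 5.51 and 5.39 on ADM and 4.21, 3.76 and 3.80 on tumor arrays. None of the 4 groups overlapped, and the order was embryonic, adult, ADM, tumor. Pecam1 was 4.75-fold higher in embryonic than in adult cells (2.25 ± 0.20, limma adjusted p = 2.86e-06) and 4.29-fold lower in tumor cells (-2.10 ± 0.20, limma adjusted p = 1.76e-06). The step from adult to ADM, -0.64 ± 0.20, had a limma adjusted p of 0.022 but was under the fold minimum. It passed that minimum at -1.13 with quantile normalization and at -1.37 with the arrays centred on housekeeping genes.

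Esam, which encodes an immunoglobulin-type adhesion molecule of tight junctions, read 6.16, 5.98 and 6.20 on embryonic arrays and 4.09, 3.90 and 3.95 on adult arrays. ADM arrays read 3.84, 4.66 and 4.28 and overlapped with the adult ones, and tumor arrays read 3.39, 3.48 and 3.38, all under the background level. Esam was 4.39-fold higher in embryonic than in adult cells (2.13 ± 0.18, limma adjusted p = 2.55e-06). Its adult level was 3.98 ± 0.10 (SD, n = 3), and tumor minus adult was -0.56 ± 0.18 (limma adjusted p = 0.0279), under the fold minimum, or -1.30 with housekeeping centring. The order of ADM and adult cells for Esam turned with the scaling: ADM minus adult was 0.28 ± 0.18 in the deposited values and -0.45 with housekeeping centring.

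The 2 VEGF receptors differed from each other. Kdr, which encodes VEGFR2, the main signalling receptor of VEGF-A, read 7.26, 7.39 and 7.39 on embryonic, 5.08, 5.18 and 5.38 on adult, 5.33, 4.72 and 4.70 on ADM and 3.45, 3.46 and 3.34 on tumor arrays. Tumor arrays lay under the background level, embryonic arrays above all others, and adult and ADM arrays overlapped. Kdr was 4.39-fold higher in embryonic than in adult cells (2.13 ± 0.17, limma adjusted p = 1.60e-06) and at least 3.02-fold lower in tumor than in adult cells (limma adjusted p = 2.51e-06). ADM minus adult was -0.30 ± 0.17 (limma adjusted p = 0.201).

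Flt1, which encodes VEGFR1, a receptor that binds VEGF tightly and signals weakly, was the exception among the 9. It read 7.70, 7.10 and 7.32 on tumor, 6.50, 6.81 and 6.78 on embryonic, 5.94, 6.54 and 5.92 on adult and 5.38, 5.73 and 5.19 on ADM arrays. Tumor arrays lay above all others and ADM arrays below all others, and embryonic and adult arrays overlapped. Flt1 was 2.36-fold higher in tumor than in adult cells (1.24 ± 0.22, SE, n = 3 per group, limma adjusted p = 0.000439) and 3.84-fold higher than in ADM cultures (1.94 ± 0.22, limma adjusted p = 3.46e-05). Without tumor replicate 1 these differences were 1.08 and 1.78, and both were still called. The difference from adult cells stood at 0.71 with quantile normalization and 0.50 with housekeeping centring, under the fold minimum. Tumor and embryonic cells, neighbours in the order, differed by 0.68 ± 0.22 (limma adjusted p = 0.0333), and embryonic minus adult was 0.56 ± 0.22 (limma adjusted p = 0.0668). The 3 tumor arrays read Kdr, Tek, Emcn and Esam under background. They read Pecam1, Cdh5 and Eng above it, at means of 3.92, 3.85 and 3.93. Tie1 had a tumor mean of 3.61, with 2 of 3 arrays above background. The cell source of Flt1 in the tumor group was not tested. Soluble and membrane forms of Flt1 were not separated here.

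Of the 2 Tie receptors, Tek, also called Tie2, read 6.29, 5.84 and 6.42 on embryonic arrays and 4.01, 3.82 and 4.17 on adult arrays. Tumor arrays read 2.67, 2.88 and 2.86, all under background. Tek varied more than any other member within ADM, at 4.95, 3.80 and 3.20, so that replicate 1 lay above and replicate 3 below every adult array. Tek was 4.54-fold higher in embryonic than in adult cells (2.18 ± 0.33, limma adjusted p = 0.000272). ADM minus adult was -0.02, with an interval from -0.73 to 0.70 (limma adjusted p = 0.972), and took the other sign with quantile normalization (0.064) and without ADM replicate 2 (0.075), ADM replicate 3 (0.38) or adult replicate 3 (0.068). Pf4, the platelet factor 4 gene, was also highest on ADM replicate 1, at 7.84 against 5.88 and 5.83. Among ADM arrays the leukocyte genes Cd68 (7.31), Lyz2 (9.72) and Itgam (4.71) were highest there too. The platelet genes Itga2b (3.45) and Gp9 (3.10) and the leukocyte gene Ptprc (3.24) were under background on that array. The part of platelets or leukocytes in the Tek level was not tested. The call of Tek as lower in tumor cells than in ADM (at least 1.29-fold, limma adjusted p = 0.027) was lost without ADM replicate 1, at -0.70 (adjusted p = 0.0766). It was also lost without ADM replicate 2 (adjusted p = 0.0507), without tumor replicate 1 (adjusted p = 0.0584), 2 (adjusted p = 0.0687) or 3 (adjusted p = 0.0677), and with only these 2 groups in the fit (adjusted p = 0.0846).

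Tie1, the partner receptor, read 5.36, 5.64 and 5.50 on embryonic, 4.23, 3.87 and 4.13 on adult, 3.53, 3.62 and 4.03 on ADM and 3.63, 3.85 and 3.34 on tumor arrays. Only the embryonic arrays stood clear of the others, at 2.68-fold over adult cells (1.42 ± 0.18, limma adjusted p = 7.41e-05) and 3.42-fold over ADM (1.77 ± 0.18, limma adjusted p = 1.37e-05). Tumor minus ADM was -0.12 ± 0.18 (limma adjusted p = 0.787) with overlapping arrays, at means of 3.73 and 3.61 beside the background level.

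Eng, the endoglin gene, was the member called between ADM and adult cells. It read 8.60, 8.60 and 8.42 on embryonic, 8.66, 8.06 and 8.54 on ADM, 6.65, 6.06 and 7.45 on adult and 3.99, 3.82 and 3.97 on tumor arrays. ADM arrays overlapped with embryonic arrays and lay above all adult arrays, which spread more widely for Eng (SD 0.70) than for any other member. Eng was 3.25-fold higher in ADM than in adult cells (1.70 ± 0.28, SE, n = 3 per group, limma adjusted p = 0.000311), and embryonic minus ADM was 0.12 with an interval from -0.48 to 0.72. Leaving out each adult or ADM array in turn gave differences from 1.37 to 2.06, and all were called. With housekeeping centring the difference was 0.97, just under the fold minimum (adjusted p = 0.00566), where the median of all genes had moved to -0.84. Tumor cells were 22.5-fold lower than ADM cultures (-4.49 ± 0.28, limma adjusted p = 1.24e-07).

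Emcn, the endomucin gene, read 8.52, 8.44 and 8.54 on embryonic, 7.02, 7.10 and 6.56 on adult, 7.32, 7.48 and 6.93 on ADM and 3.27, 3.23 and 3.06 on tumor arrays. Embryonic arrays lay above all others, ADM and adult arrays overlapped, and tumor arrays were under background. Emcn was 3.05-fold higher in embryonic than in adult cells (1.61 ± 0.18, limma adjusted p = 2.40e-05) and at least 9.66-fold lower in tumor than in adult cells (limma adjusted p = 4.41e-09). ADM minus adult was 0.35 ± 0.18 (limma adjusted p = 0.146), and -0.10 or -0.38 with quantile normalization or housekeeping centring.

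**Figure D2:**
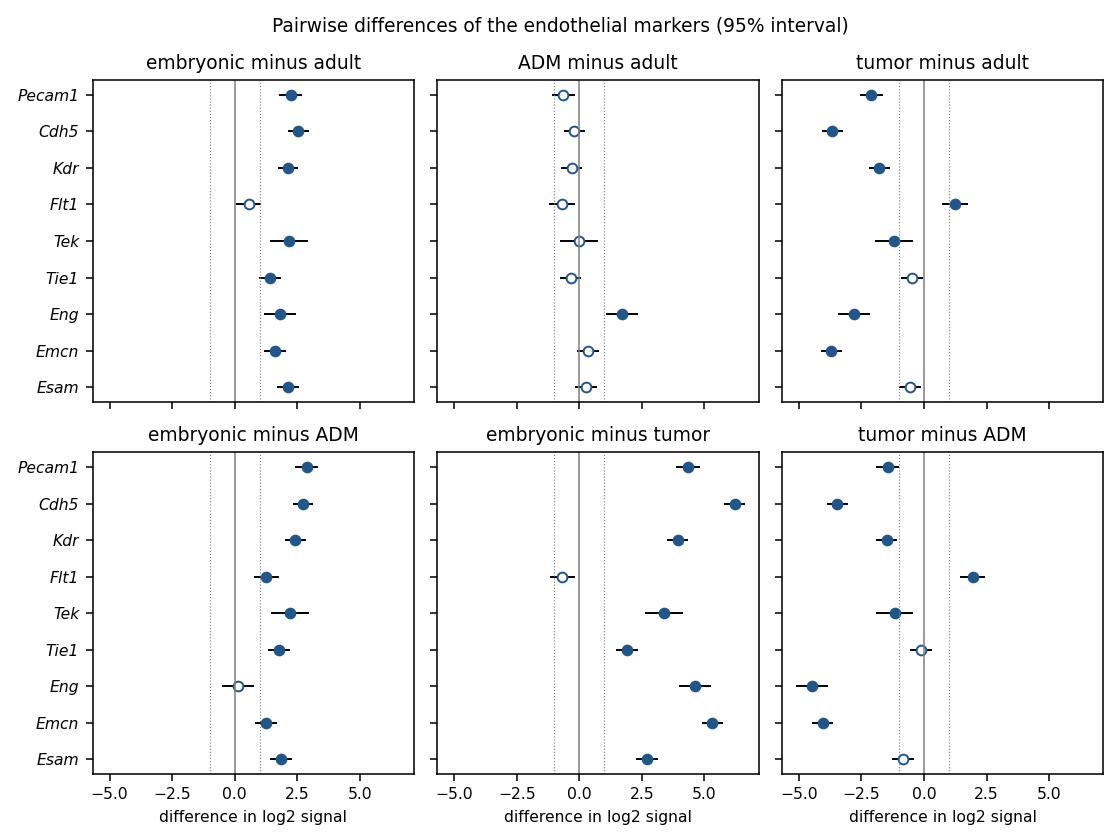
Difference in log2 signal (horizontal axis) of the 9 genes for each of the 6 pairs of groups, named above each panel, with 95% intervals from limma. Filled points were called and open points were not, and dotted lines mark the fold minimum of 1. Only Flt1 lies to the right of 0 in tumor minus adult cells (1.24) and in tumor minus ADM cells (1.94), and Eng alone is filled in ADM minus adult cells (1.70).

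The profile of each member over the 12 arrays, centred on its own mean, was set against the mean profile of the other 8. The root mean square difference was smallest for Kdr (0.29), Tek (0.46), Pecam1 (0.50) and Esam (0.52). It was largest for Flt1 (1.84), then Eng (1.18), Cdh5 (1.12) and Emcn (1.05). For Cdh5 and Emcn this came with a wider span of group means, 6.20 and 5.31 log2 units, against 1.94 for Flt1 and 1.89 for Tie1. Within a group the members did not deviate together: in ADM replicate 1, Tek lay 0.97 and Kdr 0.41 above their group means while Esam lay 0.42 below. In adult replicate 3, Eng lay 0.73 above and Emcn 0.33 below its mean. The mean over the 9 members deviated from its group mean most on ADM replicate 3, by -0.15.

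A wider list of 30 endothelial genes, 29 of them measured, was read in the same way. In embryonic against adult cells 22 of 29 were called higher (10% of all genes), with a median of 1.54. The number called higher was 20 with quantile normalization, 16 with housekeeping centring and 20 to 23 with arrays left out. Aplnr, the apelin receptor, was 14.9-fold higher (3.90 ± 0.28, limma adjusted p = 5.85e-07). Cd34, a sialomucin of capillaries and progenitors, was higher by 3.00 ± 0.24 on the log2 scale, and Gpihbp1, which carries lipoprotein lipase across capillaries, 6.20-fold higher. The endothelial transcription factor genes Fli1, Erg, Sox17 and Sox18 were also called, at 2.29, 1.55, 1.11 and 1.16. Sox18 lost its call with quantile normalization (0.79), with housekeeping centring (0.76) and without adult replicate 2 (0.98), and Sox17 with housekeeping centring (0.72). Robo4 (0.89), Nos3 (0.63), Apln (0.72) and Nostrin (0.65), also of this list, lost their calls with housekeeping centring too. Vwf, the von Willebrand factor gene, stood at 5.18 in embryonic and 3.64 in adult cells.

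The median ADM minus adult difference of the 29 was -0.26, or -0.03 with group means under background raised to it. In ADM against adult cells 1 of the 29 was called higher and 3 lower (12.5% and 4.22% of all genes). Those lower were Sox18 (-1.13 ± 0.19), Plvap (-1.08 ± 0.17), which forms the diaphragms of fenestrated capillaries, and Ramp2 (-1.14 ± 0.28), a partner of the adrenomedullin receptor. Sox18 and Ramp2 lost their calls without adult replicate 1 (-0.98 and -0.91), and Plvap without ADM replicate 3 (-0.98). The number called lower rose to 7 with quantile normalization (1375 of all 22180 genes) and 14 with housekeeping centring (7667 of all genes). It rose to 5 without adult replicate 2 or without adult replicate 3. Esm1, the endocan gene known from tip cells of growing vessels, was 8.48-fold higher in ADM (3.08 ± 0.32, limma adjusted p = 6.92e-06). It read 7.16, 8.77 and 7.52 on ADM arrays, 4.47, 4.79 and 4.94 on adult arrays and 5.31, 5.86 and 5.41 on embryonic arrays. The number called higher was 2 without ADM replicate 3, adult replicate 1 or adult replicate 3.

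In tumor against adult cells 9 of the 29 were called lower and 3 higher (5.96% and 14.0% of all genes), with a median of -0.65. That median was -0.45 with group means under background raised to it. Podxl alone was called higher without tumor replicate 1, with quantile normalization or with housekeeping centring. Housekeeping centring also raised the number called lower to 19, beside 7313 of all 22180 genes. The 3 higher ones were Podxl, Ptprb and Nostrin. Podxl, the podocalyxin gene, which epithelial tumors are also known to express, read 7.14, 6.77 and 6.97 on tumor arrays and 5.06, 4.43 and 5.17 on adult arrays (2.07 ± 0.21, limma adjusted p = 3.49e-06). Ptprb, which encodes the phosphatase of VE-cadherin and Tek, read 7.34, 6.39 and 6.54 on tumor arrays and 6.18, 5.87 and 4.76 on adult arrays (1.15 ± 0.33, limma adjusted p = 0.0142). The Ptprb difference was 0.86 without tumor replicate 1 and 0.73 without adult replicate 3, neither of them called, and its adjusted p was 0.0501 with only these 2 groups in the fit. Nostrin, which binds nitric oxide synthase, stood at 5.68 in tumor and 4.59 in adult cells, and its call was lost without tumor replicate 1 (0.93) or adult replicate 2 (0.97). Tumor arrays lay above all adult arrays for these 3 genes, while Sox18, Clec14a and Myct1 were under the background level in tumor cells.

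Of the 4 genes known from lymphatic endothelium, Lyve1, the hyaluronan receptor, read 9.25, 8.59 and 8.69 on embryonic arrays. It stood at 4.19 in adult, 4.11 in ADM and 3.72 in tumor cells, so that embryonic cells were 25.2-fold above adult cells (4.66 ± 0.22, limma adjusted p = 2.09e-08). Lyve1 is also known from tissue macrophages. Prox1, the lymphatic transcription factor, which pancreatic progenitors also express, was 4.33-fold higher in embryonic than in adult cells, at 6.68 against 4.57. Pdpn, the podoplanin gene, also known from fibroblasts and mesothelium, was highest in ADM, at 8.22 ± 0.54 (SD, n = 3), against 6.90 in embryonic and 4.72 in adult cells. Flt4, the receptor of VEGF-C and VEGF-D, was not called in any comparison with adult cells.

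The ligands and coreceptors of the members made up a list of 15 genes, together with the hypoxia factors Hif1a and Epas1. Against adult cells, 5 were called higher in embryonic cells (10% of all genes). In ADM 5 were called higher and 1 lower (12.5% and 4.22% of all genes). In tumor cells 2 were called higher and 4 lower (14.0% and 5.96% of all genes). The count higher in embryonic cells was 3 with quantile normalization and 2 with housekeeping centring. Housekeeping centring raised the count lower to 3 in ADM and 7 in tumor cells (7667 and 7313 of all 22180 genes). Quantile normalization raised that in ADM to 2 (1375 of all genes). Vegfa itself, the ligand of Kdr and Flt1, was not called in any of these. It read 9.10, 9.43 and 9.43 on ADM, 8.45, 8.24 and 8.43 on adult, 7.86, 7.93 and 8.18 on embryonic and 8.95, 7.78 and 7.68 on tumor arrays. ADM arrays lay above all other arrays, and ADM minus adult was 0.95 ± 0.27 (limma adjusted p = 0.0151), just under the fold minimum, which it passed without ADM replicate 1 (1.06). Vegfa was called lower in embryonic cells than in ADM (-1.33 ± 0.27, limma adjusted p = 0.0033), the comparison in which Kdr was higher. This Vegfa call was lost with housekeeping centring, at -0.995, just under the fold minimum.

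The lymphatic growth factors Vegfc and Vegfd were higher in both embryonic cells and ADM cultures than in adult cells. Vegfd stood at 7.71 in embryonic, 5.92 in ADM and 3.94 in adult cells, and Vegfc at 5.78, 6.67 and 4.42, where the embryonic difference of Vegfc was 0.97 and not called with housekeeping centring. The angiopoietin genes moved apart in ADM. Angpt2, known to oppose Angpt1 at Tek, read 5.75, 6.80 and 5.84 on ADM and 4.43, 3.42 and 3.67 on adult arrays (2.29 ± 0.31, limma adjusted p = 7.44e-05). Angpt1, the activating ligand of Tek, read 3.24, 2.88 and 3.37 on ADM and 6.03, 5.90 and 4.77 on adult arrays, a difference of at least 3.85-fold (limma adjusted p = 2.13e-05). All ADM arrays were under background for Angpt1 and all adult arrays above it.

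Among coreceptors, Nrp2, a neuropilin, was called higher than in adult cells in embryonic (1.24 ± 0.18), ADM (1.42 ± 0.18) and tumor cells (1.62 ± 0.18). These differences were 0.84, 0.70 and 0.88 with housekeeping centring, under the fold minimum, and the embryonic one was 0.98 with quantile normalization. Nrp1 was called higher in embryonic (1.54 ± 0.28) and lower in tumor cells (-1.01 ± 0.28). The lower call of Nrp1 was lost without tumor replicate 1 (-0.63), adult replicate 1 (-0.92) or adult replicate 2 (-0.95). Acvrl1, the endothelial kinase that signals with endoglin, was called higher in embryonic cells at 5.23 against 4.19 in adult cells, a call lost with either other scaling (0.93 and 0.65) and without embryonic replicate 1 (0.82) or adult replicate 2 (0.95). In ADM Acvrl1 stood at 4.15, with a difference from adult cells of -0.03 ± 0.19, where Eng was 3.25-fold higher. Hif1a was higher in ADM (2.04 ± 0.23) and tumor cells (1.56 ± 0.23, or 0.83 and not called with housekeeping centring), and Epas1, the hypoxia factor prominent in endothelium, was 5.22-fold lower in tumor cells.

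**Figure D3:**
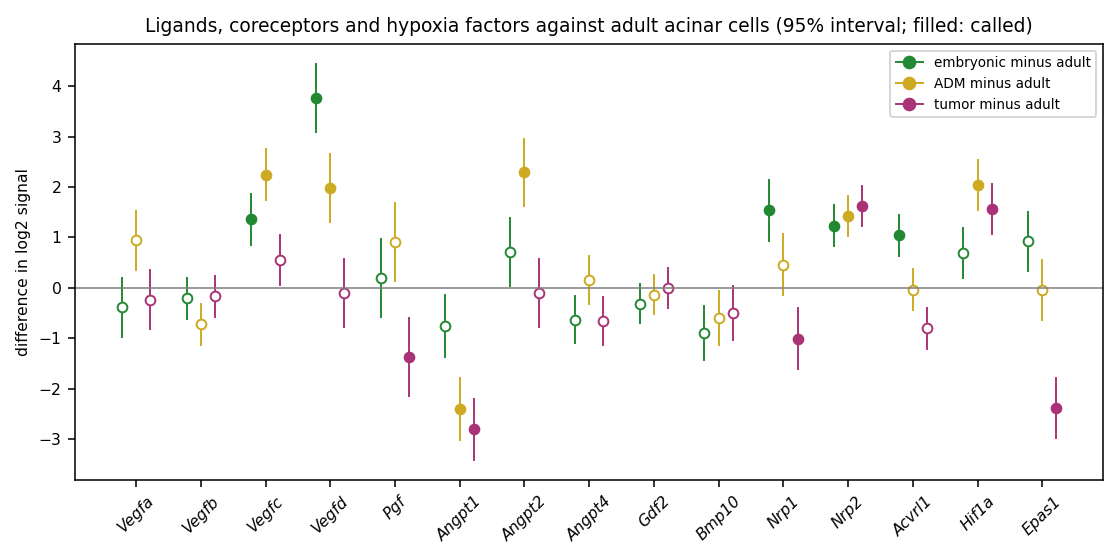
Difference in log2 signal from adult acinar cells (vertical axis) of 15 ligand, coreceptor and hypoxia factor genes in embryonic, ADM and tumor cells, with 95% intervals from limma. Filled points were called. Angpt2 (2.29) and Angpt1 (-2.40) lie on opposite sides of 0 in ADM, and Nrp2 is filled in all 3 comparisons, where it fell under the fold minimum with housekeeping centring.

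Markers of other nonepithelial cells were measured beside the endothelial ones. Of all genes, 10% were called higher in embryonic than in adult cells. In ADM 12.5% of all genes were called higher and 4.22% lower than in adult cells. With housekeeping centring 7667 of all 22180 genes were called lower in ADM. Mural genes, of the pericytes and smooth muscle that surround vessels, were called higher in embryonic than in adult cells in 8 of 10 cases (median 2.12), with Mcam at 3.09 and Abcc9 at 2.74. In ADM 3 were higher, Acta2 (3.80), Pdgfrb (3.43) and Mcam (1.47), which fibroblasts or endothelium also express, and the pericyte gene Rgs5 was lower (-1.43). With housekeeping centring Mcam was not called (0.74) and 3 mural genes were lower in ADM. Fibroblast genes were higher in 8 of 8 cases in embryonic cells (median 4.40) and in 7 of 8 in ADM (median 3.17). Postn was higher by 6.52 and 6.20. Dcn was lower in ADM by value (-0.87, not called). With housekeeping centring 5 fibroblast genes were higher in ADM and Dcn was called lower (-1.60). Lum (0.42) and Thy1 (0.91) lost their calls there, and Lum also with quantile normalization (0.75). Of 11 leukocyte and platelet genes, 6 were higher in embryonic cells (median 1.03) and 3 in ADM, namely Pf4, Cd68 and Lyz2. The embryonic count was 5 with quantile normalization, and 4 with housekeeping centring or without embryonic replicate 1. With housekeeping centring Lyz2 was not called (0.68), and 5 of the 11 were lower in ADM. Of 4 measured erythroid genes only Slc4a1 was called, higher in embryonic cells by 1.18, and its call was lost with housekeeping centring (0.79) and without embryonic replicate 2 (0.80) or adult replicate 1 (0.93). Housekeeping centring gave 3 erythroid genes lower in ADM.

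The mean log2 signal of the fibroblast list ran from 9.07 to 9.73 on embryonic, 7.25 to 8.64 on ADM, 5.20 to 5.56 on adult and 3.31 to 3.43 on tumor arrays. That of the leukocyte and platelet list ran from 5.35 to 5.73, 4.34 to 4.88, 4.27 to 4.33 and 3.41 to 3.63 in the same order. Ptprc, the pan-leukocyte gene, stood at 3.21 in ADM, under background, against 4.78 in embryonic and 3.69 in adult cells. The erythroid list ran from 3.71 to 4.45 on embryonic and from 3.73 to 4.07 on adult arrays. The part of each of these cell types in the levels of the 9 members was not tested. In tumor cells, 2 of 8 fibroblast genes and 2 of 11 leukocyte and platelet genes had a mean above background, and 4 of the 9 members did: Pecam1, Cdh5, Flt1 and Eng, of which Flt1 alone was above 4.

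**Figure D4:**
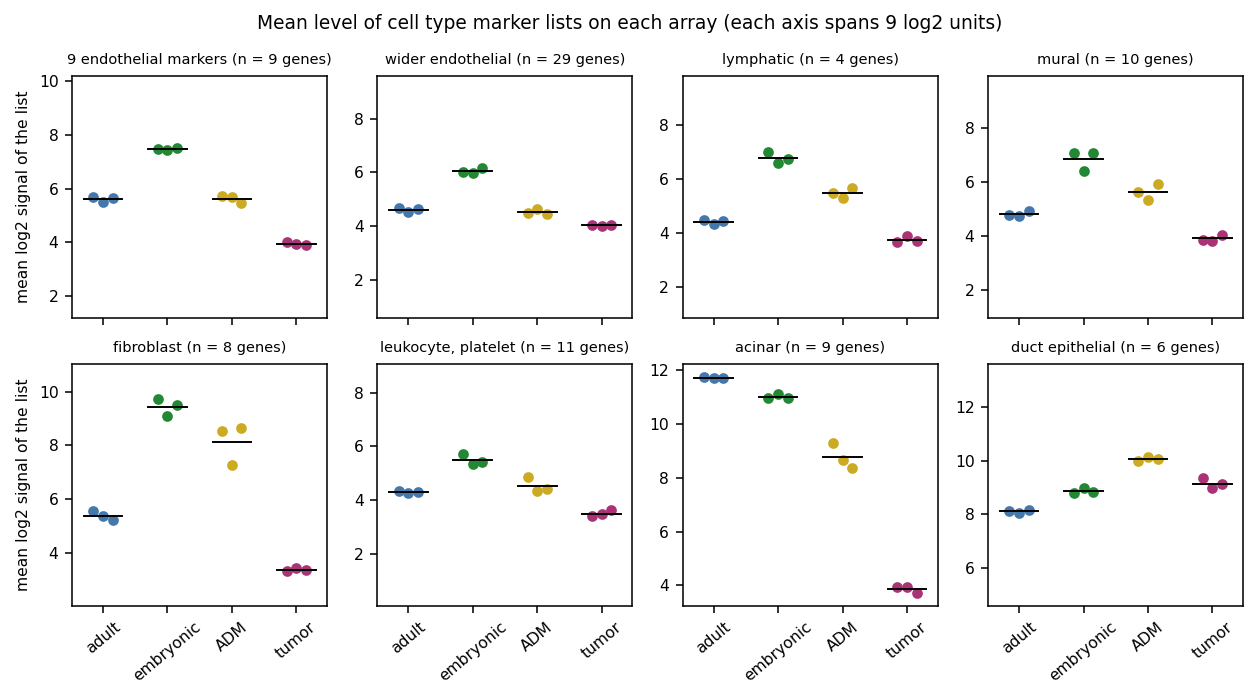
Mean log2 signal (vertical axis) of 8 marker lists on each array, with 3 points per group and a bar at the group mean. The endothelial markers are highest in embryonic cells (7.47) and stand at 5.62 in adult and 5.63 in ADM cells in the deposited scaling, whereas the fibroblast list is higher in ADM (8.13) than in adult cells (5.37).

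The 10 other genes with the profile nearest to the mean of the 9 members, among those whose group means spanned at least 1 log2 unit, were Slc28a3, Prox1, Arhgap29, Cd93, Gimap4, Tmem88, Sirpa, Meis1, Myct1 and C1s1. Likeness was the root mean square difference of centred values over 12 arrays. It was 0.21 for Slc28a3, a nucleoside transporter gene, 0.29 for Prox1, 0.32 for Arhgap29, 0.34 for Cd93, a glycoprotein gene of endothelium and myeloid cells, and 0.36 to 0.39 for the other 6. Cd93 stood at 6.34 in embryonic, 4.95 in ADM, 4.19 in adult and 3.02 in tumor cells. Of these 10 genes, Myct1 was in the wider endothelial list and Prox1 in the lymphatic list.

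The nearest genes of single members differed. Those of Kdr were Fli1 (0.32), Ccdc198 (0.36) and Prox1 (0.38), and those of Pecam1 were Hpgd (0.28), Gpihbp1 (0.38) and Cdo1 (0.39). Grb10 was the nearest gene of both Cdh5 (0.29) and Emcn (0.41). Stab1, the scavenger receptor gene of sinusoidal endothelium and macrophages, was among the nearest 3 of Tie1 (0.23). The nearest genes of Flt1 were Pdx1 (0.27), the pancreatic transcription factor, Col18a1 (0.28) and Fads1 (0.30). Those of Eng were Epcam (0.40), Sparc (0.43), a matrix glycoprotein gene, and Serping1 (0.55). Pdx1 read 6.45 in tumor cells, 5.45 in embryonic, 4.87 in adult and 4.47 in ADM cells on average. Its order of groups is that of Flt1, which follows from its choice by likeness on these same arrays.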

How the data were processed

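Affymetrix arrays of 12 samples (4 groups of 3) were read from the deposited table of 41345 probe sets. The deposited values were taken as log2 signal that the authors had processed, with the base inferred from their range (1.56 to 13.67), and the software and normalization are not given in the sources used here. Of the probe sets 23521 carried 1 gene symbol. For the 1082 genes with several, the brightest over 12 arrays was used. All 9 members matched RefSeq by gene identifier. Differences came from limma 3.58.1 in R 4.3.3 (group means over all arrays, 8 residual degrees of freedom, prior 5.02, two-sided), for 6 comparisons, each adjusted over 22180 genes. In simulated embryonic against adult arrays, 95.5% of 200 genes shifted by 2 log2 units were recovered. "At least" marks a fold whose dimmer mean was raised to the background level. The members, marker lists, background level, motifs and the rule for named genes were chosen with earlier results of these data known. Named genes were all members, from each marker list the genes called in embryonic or ADM against adult cells (up to 3 a direction, by size) and others whose level stands beside a member's, and the nearest genes by profile. Alternatives were quantile normalization, centring on 11 of 15 housekeeping genes, other probe set and filter choices, other fits, and arrays left out. The number of arrays limits precision.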

Additional observations from a re-analysis of the deposited data

How the results depend on the processing

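Counts of called members in embryonic against adult, ADM or tumor cells were 8 under all alternatives run, including quantile normalization, housekeeping centring and each array left out. In ADM against adult cells the count called lower was 0 in the deposited values (2 at an unadjusted limma p under 0.05). It was 2 with quantile normalization (Pecam1 and Flt1) and 4 with housekeeping centring (these with Kdr and Tie1). Of all 22180 genes, 935, 1375 and 7667 were called lower there in the same order. The count of members called higher fell from 1 to 0 with housekeeping centring (1 at an unadjusted p). In tumor against adult cells the count called higher fell from 1 (Flt1) to 0 with quantile normalization and to 0 with housekeeping centring, each with 1 at an unadjusted p. Housekeeping centring moved the median of all genes against adult cells to -0.48 in embryonic, -0.84 in ADM and -0.83 in tumor cells. The housekeeping genes themselves had medians of 0.45, 0.80 and 0.92 there. The share of calls that were higher was 79.3%, 74.7% and 70.2% in these comparisons, 64.0%, 59.4% and 57.4% with quantile normalization and 38.7%, 13.0% and 15.9% with housekeeping centring. For embryonic minus ADM and embryonic minus tumor it was 51.9% and 54.5%, and 75.4% and 76.9% with housekeeping centring. Signs turned only where the main value was not called. In ADM minus adult cells Tek was 0.064 with quantile normalization and -0.50 to 0.38 with arrays left out, Emcn was -0.10 and -0.38 with quantile normalization and housekeeping centring, and Esam was -0.45 with the latter. With arrays left out, Eng ran from -0.06 to 0.24 in embryonic minus ADM and Tie1 from -0.24 to 0.032 in tumor minus ADM. The groups share replicate numbers only: deviations from group means correlated at -0.05 to 0.13 between same-numbered arrays and at -0.12 to 0.11 between others. With a replicate block, the counts of called members were the same in all 6 comparisons (8 higher in embryonic against adult cells). The alternatives for the other marker lists, and for the mean and intervals of the members, were chosen after seeing the data. Of the alternative values of single members, 674 kept their direction and side of the threshold, 10 changed sign, 9 gained a call and 9 lost it. The cause of these changes was not tested.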
